A study of Homo sapiens with 4 samples.

Results

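The subject is a set of 133 abundant protein-coding transcripts, from 133 genes, whose counts were lower in H1299 cells treated with HgCl2 than in the solvent control. The members were selected on the measured values themselves. A transcript entered the set if GENCODE classes it as protein_coding, if its mean over the 4 columns of the count table was at least 200, and if its log2 ratio of mean counts, HgCl2 over EtOH, lay at or below -0.8 after centring. Centring subtracts the median log2 ratio of 0.07 over the 2712 transcripts of any class that reach 200 counts. Of the 227368 listed transcripts, 2180 are coding and reach this minimum. At or below the threshold lay 147 of them (6.74%), and 14 of these were set aside by gene symbol (mitochondrially encoded, ribosomal, kinesin, centromere protein, heat shock and zinc finger genes, and ARIH2), which left the 133. Since the contrast chose them, every ratio given here describes the members and tests nothing.

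H1299 is a long-established line of human lung carcinoma of the non-small-cell type, so all values come from 1 line in culture. One group was treated with 5 μM HgCl2 for 48 h, a concentration the study chose as low, and the other with EtOH, the solvent of the HgCl2 stock. The characteristics of the labels call the EtOH samples wild type, although the treatment text repeats the mercury dose for every sample. Poly-A RNA was made into TruSeq libraries, and each group holds 2 columns, replicates 1 and 2. Total counts were 5051958 and 5053120 in EtOH and 4722772 and 4720978 in HgCl2. The variance of the difference between the columns of a group was 0.50 (EtOH) and 0.52 (HgCl2) times its Poisson value, against 31.8 to 31.9 between groups. Columns of the same group were thus closer than counting noise allows for separate libraries, and each group is treated as 1 sample. No test across the groups is possible with 1 sample each, and the 95% Clopper-Pearson intervals given with the ratios cover counting error only. VIM, an intermediate filament of mesenchymal cells, had 620, 628, 501 and 511 counts in EtOH replicates 1 and 2 and HgCl2 replicates 1 and 2. The epithelial markers CDH1 and EPCAM, the leukocyte markers PTPRC and CD3E and the lung marker SFTPC were at 0. The keratin KRT8 had 53 and 58 counts in EtOH and 4 in each HgCl2 column, and KRT18 had 23 and 24 against 18 and 31. CDH2, NKX2-1, COL1A1 and PECAM1 had at most 18. A 0 is not read as absence in these tables, since GAPDH and ACTB had 0 to 3 counts.

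Inorganic mercury binds strongly to thiol and selenol groups of proteins and small molecules, and it disturbs redox balance, mitochondria and microtubules. Abundant messages of a dividing carcinoma line include those for chromosome segregation and DNA replication, which are transcribed in waves through the cell cycle. Others, for protein folding, sterol synthesis, respiration and the actin cytoskeleton, serve all cells. A lower share of reads in a bulk library can come from fewer cells that carry a message or from less of it in each cell, and these cannot be told apart here.

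Across the 133 members the median centred log2 ratio was -0.98, with quartiles of -1.20 and -0.88, so that the median member was at 50.8% of its EtOH level. All 2180 coding transcripts had a median of -0.01 and quartiles of -0.32 and 0.25. At or below -1 lay 64 members, at or below -1.5 there were 15, and 5 reached -2 or less. On the opposite side, 66 coding transcripts lay at or above 0.8. The intervals of 67 members ended at or below the threshold, and those of the other members crossed it. The HgCl2 columns lay below the EtOH columns in all members. A rule on group means, with columns this close within a group, makes that nearly certain. The share over all coding transcripts was not counted, so nothing is read from it. Mean counts in EtOH ran from 255 to 11206 with a median of 452, and in HgCl2 from 54 to 6286 with a median of 233. The members' columns differed by a median of 2.70% within EtOH and 3.43% within HgCl2, and by at most 15.1% and 21.1%. Together the members took 2.38% and 2.39% of all counts in the EtOH columns and 1.31% in each HgCl2 column.

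**Figure D1:**
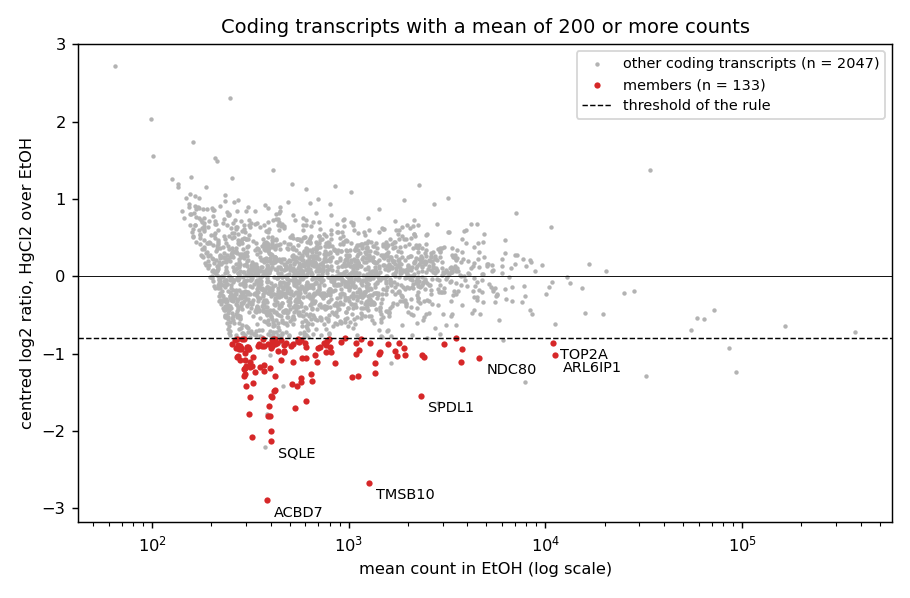
Centred log2 ratio of HgCl2 over EtOH against the mean EtOH count (log scale) for the 2180 coding transcripts that reach a mean of 200 counts, 1 point a transcript, with the 133 members in red and the threshold as a dashed line. Most members have under 1000 EtOH counts, and ACBD7 at -2.90 and TMSB10 at -2.67 lie lowest; grey points under the line are the 14 set aside by symbol.

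How many transcripts qualify depends on the scale, since the size of the libraries can be matched in several ways. With the size factors of DESeq2, which also underlie the deposited FPKM values, every log2 ratio was 0.39 higher and 35 of the 133 would still have met the threshold. With scaling to the column totals the shift was 0.16 and 72 did. All 133 members stayed below 0 under each of these scalings. Of the members, 105 had fewer than 1000 mean EtOH counts, and the share of coding transcripts that were members was 11.4% (77 of 675) for overall means of 200 to 400 counts and 1.88% (3 of 160) at 3200 or more.

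The lowest ratio belonged to ACBD7, a small protein with an acyl-CoA-binding domain, on the minus strand at chr10:15075475-15088776 (GRCh38). Its counts were 390 and 378 in EtOH and 49 and 59 in HgCl2, a centred log2 ratio of -2.90 (95% interval -3.33 to -2.48), or 13.4% of the EtOH level. TMSB10 (chr2:84905656-84906671, plus strand), a thymosin that binds actin monomers, had 1279 and 1260 counts in EtOH and 221 and 196 in HgCl2, a ratio of -2.67 (-2.89 to -2.46). Per length it was among the most abundant members, with 501.3 FPKM in EtOH and 102.9 in HgCl2. In SQLE, the squalene epoxidase of cholesterol synthesis, counts went from 401 and 399 to 97 and 94 (-2.13). CEP19, a centrosomal protein needed for cilium formation, had 326 and 319 counts in EtOH and 77 and 83 in HgCl2 (-2.08). The histone gene H2BC9 had 396 and 408 against 104 and 106 (-2.0). In each of these genes the EtOH columns lay within a few percent of each other and far above both HgCl2 columns.

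The following 15 members in order lay between -1.81 and -1.39. PDIA3, a disulfide isomerase that folds glycoproteins in the endoplasmic reticulum (ER), had 381 and 395 counts in EtOH and 116 in each HgCl2 column (-1.81). TXNDC16, a thioredoxin-domain protein of the same compartment, had 406 and 393 against 114 and 125 (-1.81). CYRIB, which binds Rac1 and restrains actin branching, had 312 and 310 against 85 and 105 (-1.78). NCR3LG1, a surface ligand of natural killer cells, had 380 and 403 against 135 and 121 (-1.68). SMCR8, an autophagy regulator, stood at -1.61 and GBF1, an exchange factor for Arf GTPases at the Golgi, at -1.56. CAVIN1, a coat protein of caveolae, lay at -1.55, ITGB5, an integrin chain, at -1.48, and ARL6IP5, an ER membrane protein, at -1.47. The nucleoporin NUP155 lay at -1.42, the mitochondrial protein NIPSNAP1 at -1.41 and CDYL2, a chromodomain protein, at -1.39. The cell division genes DEPDC1B, CDCA5 and SPDL1 complete these 15 and are described with their group. Of these members, SPDL1 stands out by depth, with a mean of 2321 EtOH counts where the others apart from TMSB10 had 301 to 607.

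**Figure D2:**
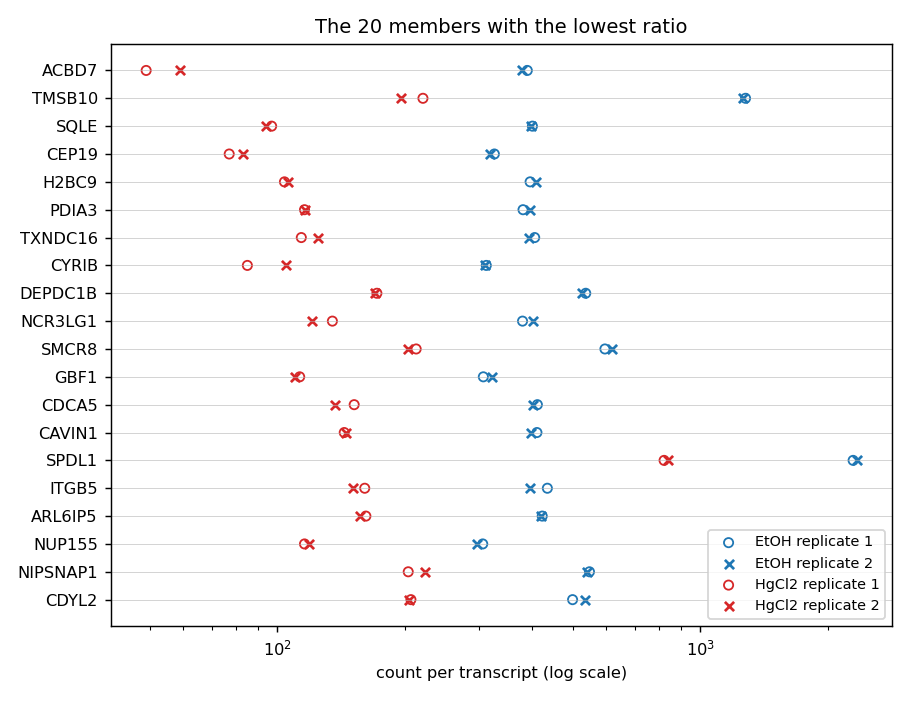
Counts per transcript (log scale) in the 4 columns for the 20 members with the lowest ratio, with EtOH in blue, HgCl2 in red, circles for replicate 1 and crosses for replicate 2. In every one of the 20 both red marks lie to the left of both blue marks, and marks of the same colour nearly coincide, as in SPDL1 with 2297 and 2345 against 821 and 840 counts.

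To describe all members, they were put by hand into groups by the known role of the protein, after their values had been seen. The group of cell division and DNA replication has 19 members, with a median ratio of -1.04. At its head by depth stands TOP2A, the topoisomerase that untangles sister chromatids, with 10802 and 11059 counts in EtOH and 6258 and 6314 in HgCl2, a ratio of -0.86 (-0.91 to -0.82). NDC80, the kinetochore protein that grips microtubules, had 4630 and 4592 against 2322 and 2312 (-1.06). CEP55, which organises the last cut between daughter cells, had 3722 and 3742 against 1807 and 1828 (-1.10). SPDL1 recruits the motor dynein to kinetochores, and its 2297 and 2345 EtOH counts stood against 821 and 840 (-1.55, interval -1.66 to -1.43). These 4 are the deepest members of the group for chromosome segregation, and their intervals are correspondingly narrow.

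The other division genes had fewer counts. DEPDC1B, which takes part in the entry into mitosis, had 536 and 526 counts in EtOH and 172 and 170 in HgCl2 (-1.70). CDCA5, or sororin, which holds cohesin on replicated DNA, had 412 and 403 against 152 and 137 (-1.56). TRIP13, an ATPase of the spindle checkpoint, had 283 and 306 against 138 and 131 (-1.20). NCAPG, a condensin subunit, had 446 and 463 against 222 and 227 (-1.08), and 33.3% of its 75-base windows also occur in another gene, mostly the overlapping LCORL. NEK2, a centrosomal kinase, had 599 and 602 against 347 and 345 (-0.86). The kinase CDK2 lay at -0.94, CDC26 of the anaphase-promoting complex at -0.91, centrin CETN2 at -0.90, ENSA, an inhibitor of a mitotic phosphatase, at -0.84, and CHMP4C of the abscission machinery at -0.81.

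Among members for DNA replication, MCM6, a subunit of the replicative helicase, had 1903 and 1931 counts in EtOH and 1038 and 1071 in HgCl2 (-0.93). GINS1, a subunit of the complex that activates this helicase, had 337 and 315 against 118 and 145, and its ratio of -1.38 (-1.68 to -1.08) was the lowest of the replication genes. BARD1, the partner of BRCA1 in repair, had 370 and 353 against 216 and 191 (-0.89).

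These genes were set beside the rest of 2 lists chosen with earlier results of these data known. Of the mitotic spindle list, 22 transcripts reach 200 counts, and 6 of them (27.3%) are members, beside the 6.74% of all coding transcripts at the threshold. The list's median was -0.55, with 19 below 0 and 3 above, beside -0.01 for all coding transcripts. Not members, but also on the low side, were ARHGAP11A (-0.76), SGO2 (-0.61), CCNB1 (-0.60) and MAD2L1 (-0.57), while SKA2, CDC27 and BUB3 lay between 0.02 and 0.05. Of the DNA replication and repair list, 4 of 19 (21.1%) are members, the median was -0.26, and FEN1 at -0.78 came next. Higher than 0 in that list were ORC2, POLD3 and RPA3, the highest at 0.22. None of the 41 reached 0.8. The rule's contrast is the one shown, so nothing is read from these shares.

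**Figure D3:**
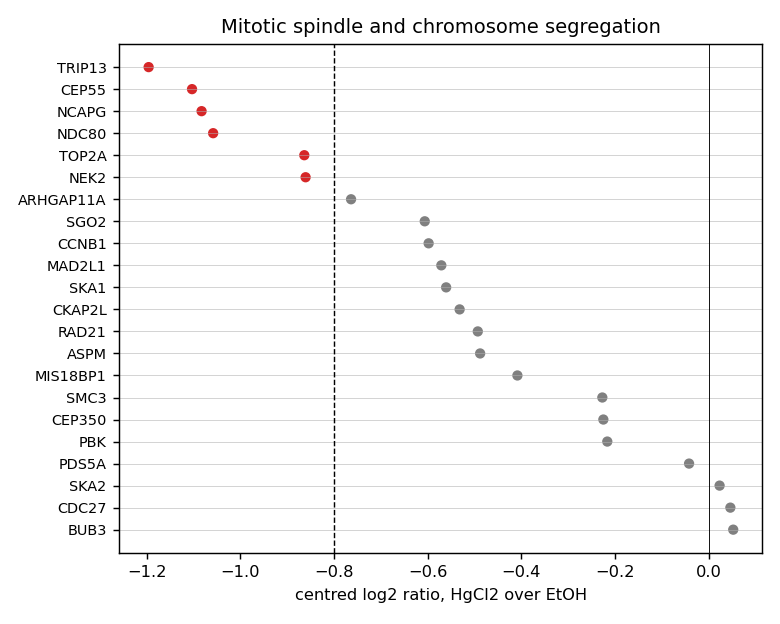
Centred log2 ratio of HgCl2 over EtOH for each of the 22 coding transcripts of the mitotic spindle list that reach a mean of 200 counts, 1 point a transcript, with members in red, other transcripts in grey and the threshold dashed. TRIP13 at -1.20 lies lowest, and 19 of the 22 points lie left of 0.

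The promoters of the members were read from the RefSeq table (GRCh38.p14), which gives 250 bases before and 50 after a gene's start. A start within 200 bases of the transcript's own was found for 100 of the 133 members and for 1593 other coding transcripts of 200 or more counts. Letters were searched on both strands, overlapping matches included. CCAAT, the binding letters of NF-Y, was held by 42% of member promoters, 35.8% of the others and 34.6% of all 35116 promoters. TTTGAA, the core of the cell cycle homology region, was held by 19.0%, 9.73% and 15.2%. Both together were held by 13 member promoters (13.0%), 3.89% of the others and 5.90% of all, a pair picked after the single shares were seen. GGGCGG, the core of SP1 sites, was held by 79.0%, 76.0% and 45.0%. The E2F letters TTTGGCGC were found in 3 member promoters, those of NUP155, GINS1 and MCM6 (3% against 0.94% of the others), and TTTCCCGC in 3% against 3.01%. The core of metal response elements, TGCNCNC, was in 58.0% against 64.5%, and the E-box CACGTG in 6% against 11.8%. TATAAA, TGACNNNGC, GAANNTTC and TGACGTCA were held by 8%, 18.0%, 6% and 2% of member promoters, against 4.52%, 16.4%, 3.95% and 3.14% of the others. A match is a description of letters and not a site.

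The 13 members whose promoters hold both CCAAT and TTTGAA are H2BC9, DEPDC1B, SPDL1, ARL6IP5, FAM72C, CEP55, DNAH5, NUP205, C14orf119, FAM72D, TOP2A, PTCD3 and LSM5, among which FAM72C and FAM72D are near-identical copies. Shown here are the 250 bases before the start for those among the 20 lowest or in the cell division group. Only stretches that hold whole matches of both letters are given, 5′ to 3′ on the gene's strand. Low ratio and the pair were both grounds for the choice, so their meeting here is no finding. Capitals mark both motifs and their reverse complements. The stretches are chr6:26251364-26251613 (plus) for H2BC9, chr5:169583523-169583772 (plus) for SPDL1, chr3:69084687-69084936 (plus) for ARL6IP5, chr10:93496362-93496611 (plus) for CEP55 and chr17:40417897-40418146 (minus) for TOP2A.
H2BC9: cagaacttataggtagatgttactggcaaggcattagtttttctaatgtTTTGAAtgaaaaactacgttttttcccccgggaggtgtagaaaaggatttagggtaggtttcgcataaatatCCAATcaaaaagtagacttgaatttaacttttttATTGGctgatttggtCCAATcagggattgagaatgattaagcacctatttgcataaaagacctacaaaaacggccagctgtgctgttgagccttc
SPDL1: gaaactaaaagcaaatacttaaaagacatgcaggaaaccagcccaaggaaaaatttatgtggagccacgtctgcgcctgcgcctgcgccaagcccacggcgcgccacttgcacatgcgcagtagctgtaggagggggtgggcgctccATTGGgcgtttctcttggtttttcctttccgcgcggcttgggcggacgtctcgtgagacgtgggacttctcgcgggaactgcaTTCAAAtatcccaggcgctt
ARL6IP5: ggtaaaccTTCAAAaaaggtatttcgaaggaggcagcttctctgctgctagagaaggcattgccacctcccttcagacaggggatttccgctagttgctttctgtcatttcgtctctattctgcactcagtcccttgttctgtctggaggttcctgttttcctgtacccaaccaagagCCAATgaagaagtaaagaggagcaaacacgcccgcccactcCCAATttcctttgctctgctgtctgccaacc
CEP55: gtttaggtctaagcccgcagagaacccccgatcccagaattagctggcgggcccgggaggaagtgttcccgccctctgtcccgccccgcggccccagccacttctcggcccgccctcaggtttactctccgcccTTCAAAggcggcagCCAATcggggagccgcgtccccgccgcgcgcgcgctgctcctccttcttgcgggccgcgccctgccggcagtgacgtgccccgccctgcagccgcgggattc
TOP2A: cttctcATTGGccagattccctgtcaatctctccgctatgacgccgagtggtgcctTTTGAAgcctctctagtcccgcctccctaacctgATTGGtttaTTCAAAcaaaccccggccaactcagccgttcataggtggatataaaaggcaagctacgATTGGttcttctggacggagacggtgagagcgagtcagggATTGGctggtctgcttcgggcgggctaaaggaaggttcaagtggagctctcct

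In the CEP55 stretch the matches begin 116 and 102 bases before the start, 14 bases apart, as TTCAAA and CCAAT. TOP2A holds CCAAT as its reverse complement ATTGG at 4 places, 244, 160, 93 and 53 bases before the start, and the TTTGAA letters at 194 and, reversed, at 151. In SPDL1 ATTGG begins 103 bases and TTCAAA 20 bases before the start. H2BC9 has CCAAT letters at 129, 95 and 80 bases and TTTGAA at 201, and ARL6IP5 has CCAAT at 72 and 31 and TTCAAA at 242. The distance between the letters thus ranged widely among these members.

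The group of histones, chromatin and transcription has 20 members with a median of -1.07. Of the histone genes, H2BC21 had 1123 and 1109 counts in EtOH and 477 and 483 in HgCl2 (-1.28). The variant H2AZ2 had 1908 and 1948 against 1007 and 988 (-1.02), and H2AC11 had 412 and 405 against 243 and 241 (-0.82). Most replication-dependent histone messages carry no poly-A tail, so a poly-A library samples few of their copies. Among transcription factors and cofactors, SMAD3, which carries TGF-beta signals, had 1326 and 1390 against 619 and 579 (-1.25), although only 1 base of this transcript is covered by no other listed transcript. POLR2C, a subunit of RNA polymerase II, lay at -1.27, PYGO2, a Wnt cofactor, at -1.18, and HOXB9, a homeobox factor, at -1.15. RTF1 (1619 and 1542 against 894 and 907, -0.88) and CDC73 (-0.81) act with the PAF1 elongation complex. GTF2H2 and its copy GTF2H2C, encoding the p44 subunit of TFIIH, lay at -0.87 and -1.16, and share 89.3% and 64.4% of their windows with other genes. The chromatin regulator list, which holds remodelling and histone-modifying enzymes, Mediator subunits and other cofactors, had 0 members among 21 transcripts and a median of -0.26. Beside this and every list count below stands the 6.74% of all coding transcripts at the threshold. The lists are short, and nothing is read from their member counts.

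For RNA processing, translation and the nuclear pore there are 11 members with a median of -0.87, NUP155 being the lowest. It had 306 and 296 counts in EtOH and 116 and 119 in HgCl2, and NUP205, another large subunit of the pore's inner ring, had 414 and 388 against 225 and 216 (-0.93). The nuclear pore list had these 2 members among 24 transcripts and a median of -0.06. RTCB, the RNA ligase of tRNA splicing, had 310 and 285 against 131 and 128 (-1.27). AARS1, the alanyl-tRNA synthetase, had 1060 and 1113 against 569 and 567 (-1.0) and was the member among 20 transcripts of the translation list. PRPF6 of the spliceosome (-0.87) and CNOT1, the scaffold of the CCR4-NOT deadenylase (-0.81), were the 2 among 34 of the RNA processing list. YTHDF1, a reader of methylated adenosine, lay at -0.87 and LSM5, of the ring that binds RNA ends, at -0.82. HNRNPA1L2, with 3528 and 3505 against 2096 and 2120 counts, is a single-exon gene whose 75-base windows all occur in other genes, HNRNPA1 among them, so its reads cannot be given to it alone.

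Transcripts for the ER, the Golgi and membrane lipids number 15, with a median of -1.24. The member with the most EtOH counts, ARL6IP1, belongs here and encodes a protein that shapes ER tubules. It had 11165 and 11247 counts in EtOH and 5809 and 5734 in HgCl2, a ratio of -1.02 (-1.07 to -0.98), and at 895.5 FPKM in EtOH and 576.3 in HgCl2 it was also the most abundant per length. EXT1, which builds heparan sulfate chains, had 412 and 430 against 180 and 182 (-1.28), and MESD, a chaperone of Wnt co-receptors, had 331 and 333 against 143 and 152 (-1.24). SRP14, of the signal recognition particle, had 313 and 338 against 157 and 173 (-1.05). GALNT10, which starts O-linked glycans, lay at -0.97, OSBP, a carrier of oxysterols between ER and Golgi, had 1845 and 1742 against 1055 and 1007 (-0.86), and KDELR2, which returns ER proteins from the Golgi, lay at -0.82. In the ER folding list 2 of 25 transcripts are members, PDIA3 and SRP14, and the list's median was 0.05. In the cholesterol and fatty acid list SQLE is the member among 8, whose median was -0.47. Its neighbours in that list were STARD4 (-0.61), CPT1A (-0.55), SCD (-0.54), ELOVL6 (-0.40) and FADS1 (-0.31), while ACSL3 and SC5D lay at 0.14 and 0.20. SQLE was thus the lowest of the 8.

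Mitochondria and metabolism form the largest group, 23 members with a median of -0.97. UQCRFS1, the Rieske iron-sulfur protein of respiratory complex III, had 3787 and 3747 counts in EtOH and 2034 and 2070 in HgCl2 (-0.94). TIMM23, the channel of protein import across the inner membrane, had 1379 and 1338 against 672 and 633 (-1.12). These 2 are the members among 17 transcripts of the nuclear-encoded mitochondrial list, whose median was -0.13. NIPSNAP1 had 547 and 541 against 204 and 224, DHTKD1, a dehydrogenase of lysine breakdown, 370 and 369 against 166 and 164 (-1.23), and MCCC2, of leucine breakdown, 1423 and 1456 against 769 and 765 (-0.97). OXCT1, which activates ketone bodies, lay at -0.98. PGAM1, phosphoglycerate mutase of glycolysis, had 2347 and 2386 against 1199 and 1240 (-1.02), with 50.1% of its windows found in other genes. GOT1, the cytosolic aspartate aminotransferase, had 649 and 690 against 331 and 363 (-1.01), and GMPS, which makes GMP, had 582 and 559 against 347 and 329 (-0.82). The list of glycolysis, the tricarboxylic acid cycle and nucleotides had 2 members among 7 and a median of -0.47, and that of amino acids and the integrated stress response had 2 (GOT1 and TRIB3) among 18 and a median of 0.05. FTL, the light chain of the iron store ferritin, had 303 and 289 against 136 in both HgCl2 columns (-1.19) and was the member among 10 of the oxidative and metal stress list, whose median was -0.19.

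In the actin, adhesion and cell surface group the 14 members had a median of -1.07. The deepest by EtOH counts were BRK1 and MYH9, ahead of TMSB10. BRK1, the smallest part of the WAVE complex that drives actin branching, had 1739 and 1781 counts in EtOH and 909 and 894 in HgCl2 (-1.03). MYH9, a non-muscle myosin heavy chain, had 1667 and 1758 against 919 and 918 (-0.96), the member among 12 of the cytoskeleton list, whose median was -0.19. ITGB5 had 435 and 396 against 161 and 151, and SDC2, a heparan sulfate proteoglycan, had 576 and 562 against 224 and 239 (-1.36). They are the members among 13 transcripts of the extracellular matrix and adhesion list, which held differences in both directions, with a median of 0.16 and CCN2 (0.82) on the high side. ABL2, a kinase that binds actin, lay at -0.98 and is the member among 31 of the signalling list (median 0.14), and ENAH, which lengthens actin filaments, lay at -0.82.

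The signalling group has 10 members, with a median of -0.96, and CAMK4, a calcium/calmodulin kinase, is the lowest (645 and 660 counts in EtOH, 268 and 265 in HgCl2, -1.36). CAMK1D, a related kinase, lay at -1.11, and OXSR1, a kinase of ion transport control, had 1140 and 1115 against 614 and 609 (-0.95). TRIB3, a pseudokinase induced by the stress factor ATF4, had 264 and 283 against 154 in both HgCl2 columns (-0.89). Among 11 members for protein folding and turnover the median was -0.86. PPIA, cyclophilin A, had 1057 and 1031 against 437 and 449 (-1.3), BAG3, a co-chaperone, had 787 and 795 against 471 and 473 (-0.81), and CTSO, a lysosomal protease, had 962 and 952 against 586 and 564 (-0.80). A further 10 members were not grouped. Of these, FAM72D had 3022 and 3069 against 1754 and 1726 (-0.87) and FAM72C had 691 and 681 against 326 and 339 (-1.11), and as copies of each other they share 88.3% and 91.2% of their windows with other genes. The lists for the nucleolus (16 transcripts), the ubiquitin system (22) and transporters (13) held 0 members, with medians of -0.21, 0.02 and 0.19. With 6.74% of all coding transcripts at the threshold, lists of this length would hold few members in any case, so nothing is read from the 0.

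**Figure D4:**
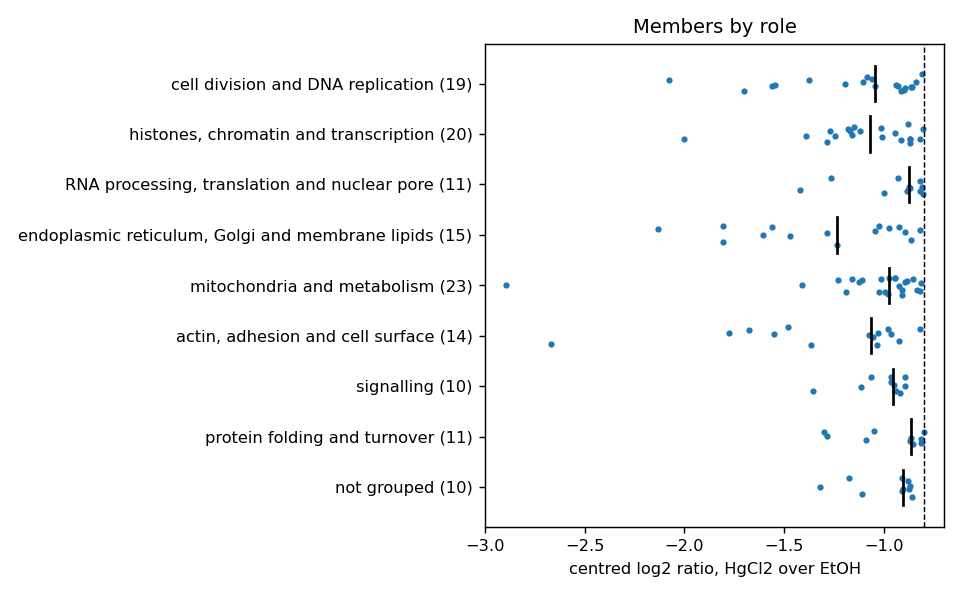
Centred log2 ratio of HgCl2 over EtOH of the 133 members by role, 1 point a member, with the group's median as a black bar, the threshold dashed and the number of members in brackets (vertical scatter within a row has no meaning). Medians run from -1.24 for ER, Golgi and membrane lipids to -0.86 for protein folding and turnover, and the groups overlap along most of their range.

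Whether a lower member stood for its whole gene was looked at from the other transcripts listed. Summed over all transcripts of a gene, 124 of the 133 genes lay at or below -0.8 and all 133 below 0, with a median of -0.97. The member held a median of 99.7% of its gene's counts and at least 90% in 116 genes, so that the sum mostly repeats the member. In 52 genes no other transcript had counts, and in 67 the others had a mean under 50. In the 14 genes where the others reached 50, their summed ratio was at or below 0 in 11 and at or below -0.8 in 6, with a median of -0.67. Where the others reached 200, it was at or below 0 in 3 of 5 genes, with a median of -0.13. Beside these, the 2180 coding transcripts had a median of -0.01, and 6.74% lay at or below -0.8. A like share over all genes was not counted. In LACTB, a mitochondrial filament protein, the other transcripts went from a mean of 209.5 to 37.0 counts (-2.57) beside -1.11 for the member. In SPDL1 they went from 225 to 85.0 (-1.47), close to the member.

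Higher than 0 were the other transcripts in 3 genes. TLE1, a corepressor, had 267 and 243 counts in EtOH and 140 and 152 in HgCl2 on the member (-0.87), while its other coding transcript had 179 and 186 against 321 and 292 (0.68), so the gene's sum was at -0.02. In NBPF1 the others stood at 0.25 and in ELP2, of the Elongator complex, at 0.40, beside -0.88 and -0.82 for their members. Below the minimum of 50 counts, single retained-intron transcripts differed in both directions. Higher in HgCl2 was one of ARL6IP1, with 2 and 1 counts in EtOH and 44 and 46 in HgCl2. In KDELR2 one had 2 and 1 against 35 and 45, and in RTCB one had 8 and 5 against 48 and 31. Lower in HgCl2 were one of PRSS23, with 34 and 44 against 6 and 11, and one of MCCC2, with 47 and 60 against 8 and 14. SRGAP2, which bends membranes at the cell edge, is a member through a transcript with 13.9% of the gene's counts, and its sum lay at -0.25. The gene sums of PPIA (-0.79), TOR1AIP2 (-0.76), GTF2H2 (-0.74), ENSA (-0.70) and KDELR2 (-0.50) also missed the threshold. Reads on near-identical copies limit other members. At least 50% of the windows of 75 bases were found in other genes for 8 members, HNRNPA1L2, NUDT3, FAM72C, GTF2H2, FAM72D, GTF2H2C and PGAM1 among them, and at least 10% for 26 members in all, while 66 had none. Among the members described above, PDIA3, NBPF1, SRGAP2, CDC26, ARL6IP1, PPIA, C14orf119, CNOT1, ENSA and UQCRFS1 had 11.3% to 30.0% (29.6% in NBPF1 and 24.1% in SRGAP2, with copies of these genes), partly from overlapping genes and partly from copies. The values of the 8 members with at least 50%, and of others that share windows with copies, are uncertain, as the authors' counting could have moved reads between copies. In addition, 4 members (ABL2, CNOT1, GTF2H2 and GTF2H2C) have no base that is covered by them alone, and SMAD3, AARS1 and ENAH have 1, 9 and 19.

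The members also differed from other coding transcripts in features the rule did not use directly. Their GC content had a median of 45.8% (quartiles 41.9% and 50.7%) beside 41.5% (38.5% and 45.5%) in the 2047 others. The share of members was higher in each higher GC class, from 2.01% (9 of 447) under 38% GC, through 3.99%, 6.46% and 7.50%, to 16.7% (43 of 257) at 50% or more. The median ratio of all coding transcripts moved along, from 0.13 in the lowest class to -0.24 in the highest, and across the 2180 transcripts of the 2 libraries Pearson's r between GC content and ratio was -0.24 and Spearman's rho -0.26. Within the members r was -0.04 and rho -0.11. The part of GC content in the selection was not tested. In the group of cell division and DNA replication GC content ran from 37.9% in BARD1 to 55.1% in CDCA5, with 38.7% in NCAPG and 38.9% in TOP2A.

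**Figure D5:**
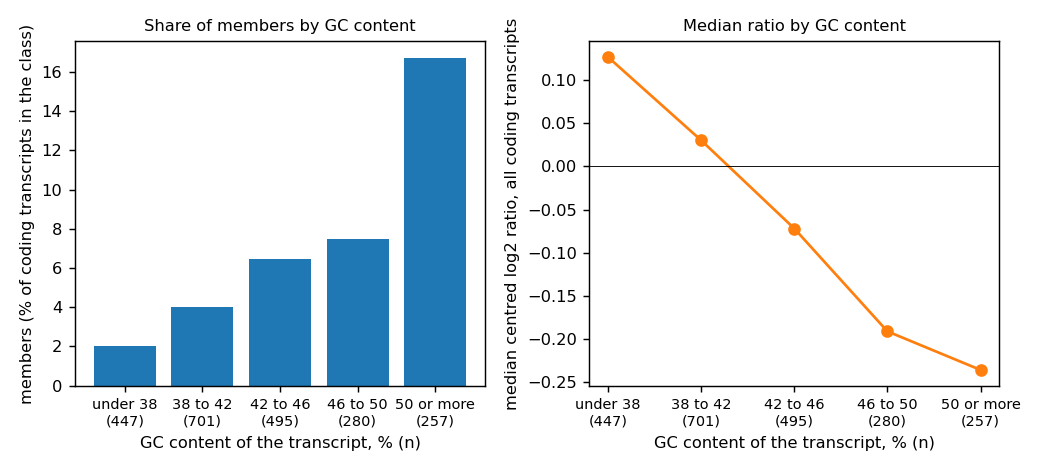
Left, members as a percentage of coding transcripts that reach a mean of 200 counts in 5 classes of GC content; right, the median centred log2 ratio of all coding transcripts in each class, with the number of transcripts in brackets. The share climbs from 2.01% to 16.7% while the median ratio goes from 0.13 to -0.24.

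Members were shorter, with a median length of 3311 bases against 4710, and this lay mostly after the stop codon (1694 against 2800 bases) rather than in the coding part (1170 against 1350). The count minimum of the rule is on raw counts, which also depend on length, and the part of length in the selection was not tested. Exon numbers had medians of 7 and 8. Under 1000 bases, 7 of 36 coding transcripts were members (19.4%), and from 4000 to 8000 bases 34 of 960 (3.54%). Lengths are those of GENCODE 44, while the authors counted on an earlier Ensembl annotation, whose transcripts can differ. H2BC9, listed at 462 bases, had 396 counts at 34.99 FPKM in EtOH replicate 1. TMSB10, at 461 bases, had 1279 counts at 505.1 FPKM there, so H2BC9 was counted on a longer transcript than listed. The length classes are therefore approximate. Length and ratio were weakly correlated over all coding transcripts (r = 0.09, rho = 0.09), but the short classes as a whole were lower. The median ratio of all coding transcripts was -0.49 under 1000 bases (36 transcripts) and -0.21 from 1000 to 2000 (175). It lay between -0.02 and 0.01 in the longer classes. The member transcript is the canonical one of its gene in 125 of 133. By chromosome, the share was highest on 22, with 5 of 21 (23.8%, with MYH9, NIPSNAP1, RTCB and JOSD1 among them), on 20 with 7 of 47 (14.9%) and on 16 with 7 of 56 (12.5%). Over all chromosomes 6.74% of coding transcripts lay at the threshold. These counts are small and were picked as the highest, so nothing is read from them. All coding transcripts of chromosome 22 had a median ratio of -0.51, beside -0.01 over all chromosomes. Within 100000 bases of each other lay 2 pairs of members, HNRNPA1L2 with SUGT1 on chromosome 13 (10405 bases) and PPIA with H2AZ2 on chromosome 7 (51396 bases).

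The edge of the set is not a gap in the data. Just inside lay CDC73 (293 and 290 counts in EtOH, 170 and 179 in HgCl2, -0.81), HNRNPA1L2 and CTSO, and just outside SENP2, a SUMO protease (281 and 263 against 162 and 165, -0.80), SUPT16H, a histone chaperone of the FACT complex (2470 and 2509 against 1497 in both, -0.80), and FSTL1, a secreted glycoprotein (1488 and 1466 against 914 and 879, -0.79). Counting error alone spans this edge for CDC73, whose interval ran from -1.08 to -0.53.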

How the data were processed

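Gene expression was measured by RNA-seq of poly-A RNA in 4 samples of H1299 cells, and the columns of the tables were assigned by the group and replicate number of the labels. The authors aligned the reads to GRCh38 with STAR 2.5.4b and deposited raw counts per transcript, without normalization. They also deposited FPKM values, for which the authors scaled the counts by size factors of DESeq2 1.26.0. The labels' processing notes also name edgeR 3.28.1.

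From the counts, group means, log2 ratios and intervals were computed in Python 3.11.15 with numpy 2.4.6, pandas 2.3.3 and scipy 1.17.1, and figures with matplotlib 3.10.9. No pseudocount was needed for members. Transcript classes, symbols, lengths, GC content and positions are those of GENCODE 44 on GRCh38, in which 98.3% of the identifiers were found. The authors counted on an earlier Ensembl annotation, so lengths, GC content and the bases covered by no other transcript can differ from those counted. TMM factors of edgeR 4.0.16 and size factors of DESeq2 1.42.0 (R 4.3.3) were used for alternative scalings only. The columns of a group were compared over transcripts with a sum of at least 20 counts.

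The members and lists were chosen with earlier results of these data known, and the rule for members uses the contrast that is described. Named are the 20 members with the lowest ratio, the 10 with the highest mean EtOH count, the 29 in the 18 gene lists (1286 symbols), and the 3 on each side of the threshold. No gene has more than 1 member transcript, and none whose other transcripts together reach a mean of 50 counts has these higher by 1 or more. All further members named, the role groups and the pair of promoter motifs were chosen after their values were seen. A few results under this rule are not reported here. The selection and the intervals were tested on simulated data. Other settings of the count minimum, threshold, scaling, unit and summing per gene, and the omission of each column, were tried.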

Additional observations from a re-analysis of the deposited data

How the results depend on the processing

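The number of members, 133, was 236 with a minimum of 100 counts, 60 with 400 and 1117 with 10, and 64 with a threshold of -1.0. The larger sets did not hold all of the 133: 131 of them were selected with a minimum of 100, 56 with 400 and 90 with 10. It was 72 when scaled to column totals, 35 for DESeq2 size factors, 35 for deposited FPKM and 30 for log2(FPKM + 1). Leaving out each column gave 118 to 137, with 107 to 123 of the 133 among them, and the remaining settings 109 to 178. With the members held fixed, their median of -0.98 became -0.96 when centred on coding transcripts, -0.91 with no centring, -0.82 when scaled to column totals, -0.59 for DESeq2 size factors, -0.59 for FPKM and -0.56 for log2(FPKM + 1). It ran from -1.01 to -0.97 without each column. The members' share outside mitochondrial transcripts was 3.17% in EtOH and 1.60% in HgCl2. Of genes with other transcripts, 78.6% had these at or below 0, and 60.0% to 80.0% under the alternatives. For the 50 members that the rule for named genes covers, 385 values stayed within their intervals, 165 moved and 0 changed sign. For scalings that shift all ratios alike, the rule had already fixed that no sign would change. No paired analysis was possible because each group counts as 1 sample and no test was made. Counting error limits members with few counts, such as ACBD7 with a mean of 54 in HgCl2.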
